A study of Mus musculus with 16 samples.

Results

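The genes described here are 7 alpha-defensins of mouse Paneth cells, namely Defa17, Defa20, Defa21, Defa22, Defa23, Defa24 and Defa26, taken by their symbols from the 49585 genes of the count table. The table holds 32 further genes with a Defa symbol, pseudogenes included. RNA was sequenced from small intestinal organoids, epithelial cultures grown from crypts, of Atg16l1fl/fl and Atg16l1ΔIEC mice. In Atg16l1ΔIEC mice a Cre recombinase under the villin promoter, which acts in intestinal epithelial cells, removes the loxP-flanked part of Atg16l1, a gene needed for autophagy. Atg16l1fl/fl mice carry the same loxP-flanked alleles without Cre, and the labels call them WT and the Atg16l1ΔIEC mice KO. Both were on a C57BL/6 background and 8 to 12 weeks old per the study's methods. All organoids grew in a medium with EGF, Noggin and R-spondin 1, and each genotype was left untreated or received recombinant mouse IL-22 at 10 ng/ml for 24 h. Each of the 4 groups had 4 cultures. The labels give each organoid culture 1 of 4 numbers, 1293 and 1294 in Atg16l1fl/fl and 1290 and 1292 in Atg16l1ΔIEC, with 2 cultures per number and treatment. They do not say what a number stands for, and it is taken here as a shared organoid origin. An n of 4 is therefore 4 cultures of 2 organoid numbers, and the p-values below measure the spread between these cultures, part of which may be technical. Because no organoid number occurs in both genotypes, a difference between genotypes and a difference between organoid numbers cannot be told apart.

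Paneth cells sit at the base of small intestinal crypts next to the stem cells and secrete granules of antimicrobial proteins into the crypt lumen. Alpha-defensins, called cryptdins in the mouse, are among the most abundant of these proteins. They are small cationic peptides that damage bacterial membranes, are made as longer precursors, and in the mouse are cut to their active form by the protease Mmp7. The genes lie in a cluster of near copies, so a short read from one of them can match several others equally well. Autophagy proteins, Atg16l1 among them, are known to be needed for normal Paneth cell granules, and IL-22 is known to act on intestinal epithelial cells through Stat3 and to induce antimicrobial genes.

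All 7 genes lie on chromosome 8 of GRCm38 on the plus strand and have 2 exons in GENCODE release M21. From the start of Defa21 at 21025545 to the end of Defa24 at 21735471 the order is Defa21, Defa23, Defa22, Defa20, Defa26, Defa17 and Defa24. The second exon codes for the end of the precursor, which becomes the active peptide. Its coding bases are shown here because they hold the cysteines that define the family and show how little separates the copies whose counts are compared below. In capitals are the codons for cysteine (TGT or TGC) read in frame, 6 in each gene:
Defa24, chr8:21735268-21735374, plus strand: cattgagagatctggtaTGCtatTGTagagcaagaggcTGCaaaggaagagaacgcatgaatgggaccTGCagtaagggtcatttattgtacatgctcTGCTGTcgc
Defa23, chr8:21055812-21055918, plus strand: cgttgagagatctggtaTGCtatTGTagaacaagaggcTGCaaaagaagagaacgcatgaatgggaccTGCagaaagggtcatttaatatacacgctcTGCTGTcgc
Defa17, chr8:21656532-21656638, plus strand: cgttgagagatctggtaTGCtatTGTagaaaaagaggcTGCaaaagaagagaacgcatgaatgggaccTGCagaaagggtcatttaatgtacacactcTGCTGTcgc
Defa26, chr8:21618773-21618879, plus strand: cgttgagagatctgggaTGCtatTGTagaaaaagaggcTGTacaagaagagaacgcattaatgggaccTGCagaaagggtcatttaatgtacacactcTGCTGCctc
Defa21, chr8:21026314-21026420, plus strand: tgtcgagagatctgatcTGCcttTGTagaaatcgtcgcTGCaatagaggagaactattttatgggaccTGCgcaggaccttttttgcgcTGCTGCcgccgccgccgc
Defa22, chr8:21163046-21163152, plus strand: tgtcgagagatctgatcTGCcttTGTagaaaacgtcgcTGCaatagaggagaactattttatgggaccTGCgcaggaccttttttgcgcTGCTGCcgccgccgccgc
Defa20, chr8:21510028-21510140, plus strand: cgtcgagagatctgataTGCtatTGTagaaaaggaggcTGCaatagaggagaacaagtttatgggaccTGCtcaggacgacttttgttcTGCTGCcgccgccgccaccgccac

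In these bases Defa17, Defa23, Defa24 and Defa26 formed a set, with 86.9% to 97.2% identity between its members, and Defa20, Defa21 and Defa22 another, with 81.4% to 99.1%. Identity between the sets was 65.5% to 69.9%. Defa21 and Defa22 differed in 1 base here and in 3 aligned positions over the whole transcript.

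Counts of such copies rest on the reads that can be placed. Of all stretches of 100 bases in the Defa24 transcript, 0% were found identically in a transcript of another gene. The share was 1.10% for Defa26, 40.4% for Defa21 and 40.3% for Defa22, each against the other of that pair. It was 89.1% for Defa23, shared with Defa31, which had no count in any culture, 90.6% for Defa17, shared with Defa3 and Defa30, and 99.7% for Defa20, shared with Defa2, Defa32 and Defa33. Reads that aligned to several places were 21.5% to 24.2% of the total of a culture and were not given to any gene. Counts of Defa17, Defa20, Defa21, Defa22 and Defa23 may therefore rest on part of each transcript. Those of Defa24 and Defa26 are the least affected by copies of this length. Per the study's methods the reads were paired and longer than 100 bases, so these shares do not give the share of reads lost.

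Promoters, taken as 250 bases before to 50 bases after the annotated start, were given in RefSeq for Defa20, Defa21, Defa22 and Defa23 (GRCm38.p6). The Defa21 and Defa22 promoters were identical, the Defa20 promoter differed from them in 7 positions, and the Defa23 promoter had 81.9% identity with that of Defa21. The 2 sequences below are shown because Defa23, Defa21 and Defa22 had the largest fold differences between untreated genotypes among the 6 tested genes, with TATAAA, the box that positions the start of transcription, in capitals. Also in capitals, on either strand, are matches of CTTTGA, the core bound by Wnt-responsive TCF factors:
Defa23 promoter, chr8:21054790-21055089, plus strand: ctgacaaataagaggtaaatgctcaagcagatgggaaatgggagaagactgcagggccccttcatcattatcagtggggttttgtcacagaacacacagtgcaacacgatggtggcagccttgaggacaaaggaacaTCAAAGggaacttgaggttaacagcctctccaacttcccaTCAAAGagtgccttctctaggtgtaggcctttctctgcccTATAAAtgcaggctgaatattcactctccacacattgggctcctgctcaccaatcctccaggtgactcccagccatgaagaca
Defa21 promoter, chr8:21025295-21025594, plus strand: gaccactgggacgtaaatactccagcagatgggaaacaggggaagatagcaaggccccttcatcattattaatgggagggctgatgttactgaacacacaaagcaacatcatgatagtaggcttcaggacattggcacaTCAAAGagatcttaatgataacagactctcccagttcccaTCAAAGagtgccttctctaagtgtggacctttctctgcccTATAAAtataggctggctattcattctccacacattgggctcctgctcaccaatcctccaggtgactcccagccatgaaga

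Each of the 4 promoters held 1 TATAAA, with its first base at -31 or -33 from the start, and 2 matches of CTTTGA, at -111 and -71 or at -113 and -73. Of all 32841 RefSeq promoters of this length, 13.6% held TATAAA and 16% held CTTTGA. TTCNNNGAA, the palindrome bound by STAT factors, was in none of the 4 and in 8.30% of all promoters. Both strands were searched for each motif, the motifs shown do not overlap, and a match describes letters, not binding.

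Between 2135000 and 5574860 counts per culture fell on genes, so that 3 counts corresponded to 0.563 to 1.36 CPM (counts-per-million, with library sizes scaled by TMM). Atg16l1 was at 31.6 to 51.8 CPM in the 8 Atg16l1fl/fl cultures and at 0.289 to 5.96 CPM in the 8 Atg16l1ΔIEC cultures, as the labels have it. Reg3g, an antimicrobial lectin induced by IL-22, was at 11.1 to 20.9 CPM in untreated and at 11327 to 18222 CPM in treated cultures. Summed markers of immune cells were at most 9.11 CPM and those of stromal cells at most 6.15 CPM in any culture, and Cd3e, a T cell marker, was at 0 throughout.

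Per kilobase of exon, Defa24 had the highest level of the 7 genes in untreated Atg16l1fl/fl organoids, at 7197 ± 1497 CPM per kb (SD, n = 4). Defa23 followed with 379 ± 85, Defa17 with 120 ± 24.9 and Defa26 with 69.8 ± 14.6 CPM per kb. Defa22 with 29.8 ± 4.61 and Defa21 with 27.6 ± 10.2 CPM per kb did not differ beyond their spread, and Defa20 was last with 2.39 ± 1.45. Reads at several places were not counted, so genes with more shared sequence, such as Defa23, Defa17 and Defa20, may be understated here. The part of lost reads in this order was not tested. The same order of Defa24, Defa23 and Defa17 came first in IL-22–treated Atg16l1fl/fl organoids (9256, 485 and 122 CPM per kb), whereas in untreated Atg16l1ΔIEC organoids Defa23 at 65.9 ± 14.7 and Defa17 at 59.6 ± 14.9 CPM per kb overlapped. For comparison, Lyz1, the lysozyme of Paneth cell granules, was at 1682 CPM per kb in untreated Atg16l1fl/fl organoids.

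**Figure D1:**
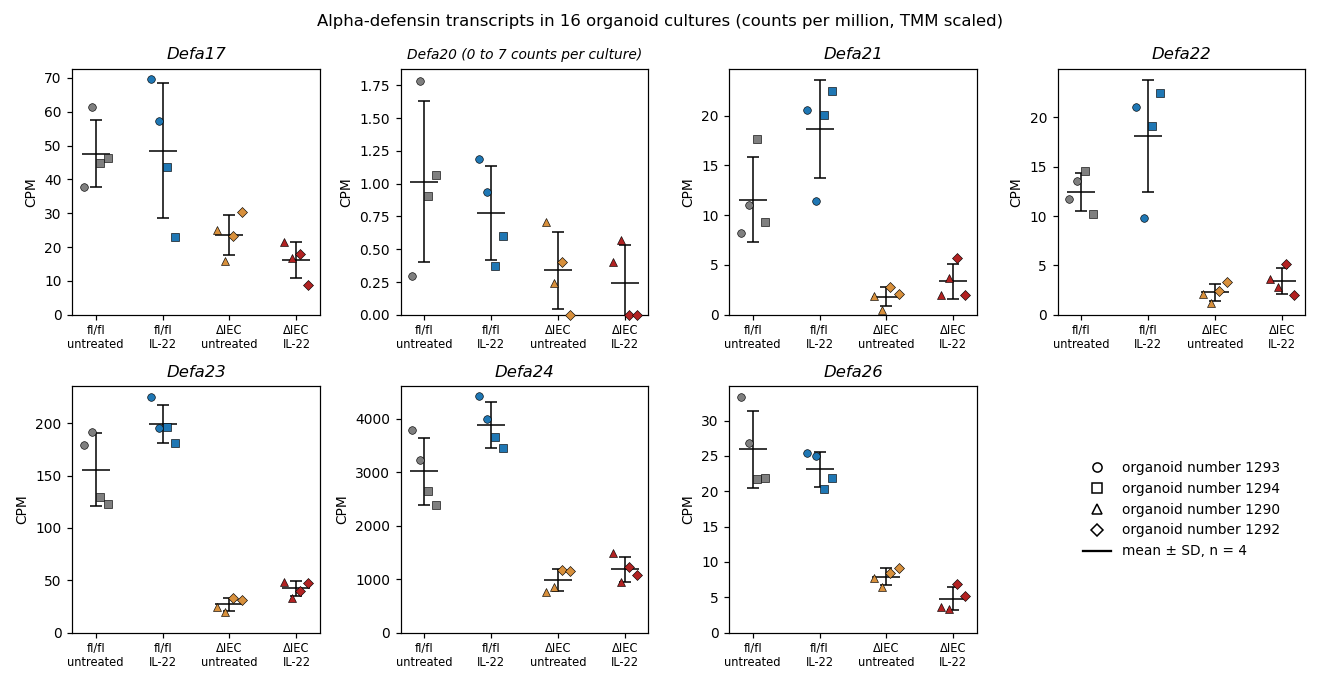
Level of each of the 7 alpha-defensin genes in every culture, in CPM on a linear axis from 0, by genotype and treatment. Symbols stand for the 4 organoid numbers, horizontal bars for the group mean and error bars for the SD (n = 4, cut at 0). For every gene but Defa20 all 8 Atg16l1ΔIEC cultures lie below the Atg16l1fl/fl cultures of the same treatment, and Defa20 had at most 7 counts in a culture.

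In untreated organoids, 5 of the 6 alpha-defensin genes that passed the filter on low counts were lower in Atg16l1ΔIEC than in Atg16l1fl/fl (edgeR quasi-likelihood test, adjusted p under 0.01). Over all 12559 tested genes, 5.98% were lower by the same test and 9.76% passed it in either direction. The median log2 fold change was -2.12 over the 6 genes and -0.02 over all tested genes. Levels of all 6 did not overlap between the groups, as was the case in this direction for 12.6% of all tested genes.

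Defa24 was at 3794, 3233, 2643 and 2393 CPM in the untreated Atg16l1fl/fl cultures and at 761, 859, 1163 and 1156 CPM in the Atg16l1ΔIEC cultures. The highest Atg16l1ΔIEC culture lay far below the lowest control culture. The means, 3016 ± 627 and 985 ± 206 CPM (SD, n = 4 each), differed 3.06-fold, a log2 change of -1.62 (SE 0.16, adjusted p = 2.70e-06, edgeR). This was a fall from 0.301% to 0.104% of all counts on genes for a single gene.

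Defa23 was lower by a larger factor. Its levels were 179, 192, 129 and 123 CPM in untreated Atg16l1fl/fl and 24.3, 19.9, 33.0 and 31.2 CPM in Atg16l1ΔIEC cultures. The means differed 5.75-fold, with a log2 change of -2.56 (SE 0.17, adjusted p = 1.17e-08, edgeR). By p-value Defa23 ranked 3 of the 12559 genes in this comparison.

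Defa21 and Defa22, the pair with identical promoters, were lower too. Defa21 was at 8.18, 11, 17.7 and 9.36 CPM in controls and at 1.89, 0.492, 2.81 and 2.08 CPM in Atg16l1ΔIEC cultures, where it had 2 to 8 counts. Defa22 was at 11.7, 13.5, 14.5 and 10.2 CPM in controls against 2.12, 1.23, 2.41 and 3.32 CPM, or 5 to 9 counts. Log2 fold changes were -2.70 (SE 0.41, adjusted p = 1.94e-04, edgeR) for Defa21 and -2.51 (SE 0.34, adjusted p = 6.78e-05, edgeR) for Defa22. Since the pair shares part of its sequence, these are not independent measurements.

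Defa26 was at 33.3, 26.8, 21.8 and 21.9 CPM in controls and at 7.78, 6.40, 8.44 and 9.14 CPM in untreated Atg16l1ΔIEC cultures, with a log2 change of -1.74 (SE 0.19, adjusted p = 8.93e-06, edgeR). Defa17 was at 37.7, 61.2, 44.9 and 46.3 CPM in controls and at 25.0, 16, 23.3 and 30.3 CPM in Atg16l1ΔIEC cultures. These groups did not overlap either, but the log2 fold change of -1.04 (SE 0.27, adjusted p = 0.0114, edgeR) missed the threshold, whereas Defa17 passed with DESeq2.

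Defa20 was too low to be tested. It had 14 counts in all over the 4 untreated Atg16l1fl/fl cultures (1 to 7 per culture) and 5 over the 4 Atg16l1ΔIEC cultures (0 to 3). After IL-22 it had 11 counts (2 to 4) and 3 counts (0 to 2). The Atg16l1ΔIEC groups lay at or under the floor of 3 counts per culture, which corresponds to 0.707 to 1.25 CPM, and a difference in Defa20 was not detectable at this depth (exact permutation p = 0.0857 for untreated and 0.114 for treated organoids, two-sided).

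The same direction was measured after IL-22, where 6 of the 6 tested genes were lower in Atg16l1ΔIEC. Of all tested genes, 9.84% were lower in this comparison and 19.8% passed in either direction. Levels of all 6 did not overlap between the groups, as for 14.2% of all tested genes in this direction. The median log2 fold change was -2.24 over the 6 genes and 0.01 over all tested genes.

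With IL-22, Defa24 was at 4417, 3992, 3652 and 3452 CPM in Atg16l1fl/fl and at 1489, 948, 1222 and 1083 CPM in Atg16l1ΔIEC cultures, a log2 change of -1.71 (SE 0.16, adjusted p = 7.66e-07, edgeR). Defa23 was at 225, 195, 196 and 181 CPM against 48.6, 33.5, 40.2 and 47.5 CPM, with -2.24 (SE 0.16, adjusted p = 6.61e-08, edgeR), and ranked 2 of 12559 by p-value. For Defa23 the highest Atg16l1ΔIEC culture, at 48.6 CPM, stood against 181 CPM in the lowest control culture. Defa26 was at 25.3, 25.0, 20.3 and 21.9 CPM against 3.65, 3.41, 6.95 and 5.21 CPM, with a log2 change of -2.24 (SE 0.21, adjusted p = 7.22e-07, edgeR). Defa17 was at 69.7, 57.3, 43.7 and 23.1 CPM against 21.5, 16.8, 17.8 and 8.68 CPM, with -1.59 (SE 0.29, adjusted p = 3.71e-04, edgeR). For Defa17 the lowest control and the highest Atg16l1ΔIEC culture, at 23.1 and 21.5 CPM, lay close to each other without overlap.

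Defa21 was at 20.6, 11.5, 20.1 and 22.5 CPM in treated Atg16l1fl/fl and at 2.03, 3.69, 5.74 and 2.03 CPM in treated Atg16l1ΔIEC cultures (log2 fold change -2.42, SE 0.34, adjusted p = 3.41e-05, edgeR). Defa22 was at 21.0, 9.82, 19.1 and 22.5 CPM against 3.65, 2.84, 5.14 and 2.03 CPM (log2 fold change -2.39, SE 0.30, adjusted p = 1.15e-05, edgeR). For both genes the second Atg16l1fl/fl culture lay well below the other 3 and above every Atg16l1ΔIEC culture.

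When the 2 cultures of an organoid number were summed, so that 2 sums stood against 2, 1 of the 6 genes passed in untreated organoids (Defa23, adjusted p = 0.00600), where 10 of 13871 genes passed in all, and 5 passed after IL-22, where 188 genes (1.36%) passed in all. Without organoid number 1290, 3 of 6 passed in untreated organoids and 3.46% of all tested genes did, the log2 fold changes of Defa21 and Defa22 then being -2.17 and -2.10 (adjusted p = 0.0170 and 0.0110).

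In Atg16l1fl/fl organoids 0 of the 6 tested genes passed the edgeR test, whereas 10.6% of all tested genes were higher and 10.2% lower after IL-22. DESeq2 also called 0. An unadjusted p under 0.05 (edgeR) was found for 4 of the 6 and for 5265 of all 12559 tested genes. The median log2 fold change was 0.36 over the 6 genes and -0.05 over all tested genes.

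Mean levels of Defa24 in Atg16l1fl/fl organoids were 3016 ± 627 CPM untreated and 3878 ± 423 CPM with IL-22 (SD, n = 4 each), with a log2 change of 0.36 (SE 0.16, adjusted p = 0.0850, edgeR). Those of Defa23 were 156 ± 34.9 and 199 ± 18.4 CPM, with 0.35 (SE 0.14, adjusted p = 0.0680, edgeR). The treated and untreated cultures overlapped for both genes, and both cultures of organoid number 1293 were above both of 1294 for Defa24 with and without IL-22. Within organoid number 1293, Defa24 had means of 3513 CPM untreated and 4205 CPM treated, and within 1294 means of 2518 and 3552 CPM. With the organoid number as a replicate block, Defa23 (log2 fold change 0.37, SE 0.09, adjusted p = 0.00104) and Defa24 (0.38, SE 0.11, adjusted p = 0.00434) passed the edgeR test. So did 30.55% of all tested genes with this block, in either direction. Neither passed when the cultures of a number were summed (adjusted p = 0.277 and 0.252, edgeR).

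Defa21 and Defa22 had means of 11.5 ± 4.24 and 12.5 ± 1.93 CPM untreated and of 18.7 ± 4.91 and 18.1 ± 5.69 CPM with IL-22 in Atg16l1fl/fl organoids. Log2 fold changes were 0.73 (SE 0.28, adjusted p = 0.0536, edgeR) for Defa21 and 0.53 (SE 0.24, adjusted p = 0.0992, edgeR) for Defa22. Defa26 was at 26.0 ± 5.43 CPM untreated and 23.1 ± 2.46 CPM treated, and Defa17 at 47.5 ± 9.89 and 48.4 ± 20.0 CPM. Their log2 fold changes were -0.18 (SE 0.16, adjusted p = 0.420, edgeR) and 0.01 (SE 0.25, adjusted p = 0.991, edgeR), and the sign for Defa17 depended on the setting.

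In Atg16l1ΔIEC organoids IL-22 raised Defa23, and none of the other 5 tested genes passed (edgeR), while 9.83% of all tested genes were higher and 7.65% lower. Defa23 was at 24.3, 19.9, 33.0 and 31.2 CPM untreated and at 48.6, 33.5, 40.2 and 47.5 CPM with IL-22. The groups did not overlap, as for 14.1% of all tested genes in this direction, although the lowest treated culture, at 33.5 CPM, was next to the highest untreated one. The means differed 1.57-fold, with a log2 change of 0.68 (SE 0.18, adjusted p = 0.00844, edgeR). The level after IL-22, 42.4 ± 7.02 CPM, remained below the lowest untreated Atg16l1fl/fl culture, at 123 CPM. The call was lost on leaving out 7 of the 16 cultures one at a time or either Atg16l1ΔIEC organoid number, with a log2 fold change of 0.45 (adjusted p = 0.224) without 1290 and 0.84 (adjusted p = 0.0322) without 1292.

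Defa26 had the opposite sign, from 7.78, 6.40, 8.44 and 9.14 CPM to 3.65, 3.41, 6.95 and 5.21 CPM with IL-22 in Atg16l1ΔIEC cultures. Its log2 fold change of -0.68 (SE 0.25, adjusted p = 0.0455, edgeR) missed the threshold, and passed it with the organoid number as a replicate block (-0.74, SE 0.22, adjusted p = 0.00773). With this block 25.46% of all tested genes passed, in either direction. Defa17 had a log2 change of -0.55 (SE 0.31, adjusted p = 0.213, edgeR), Defa24 of 0.27 (SE 0.16, adjusted p = 0.227), Defa22 of 0.65 (SE 0.42, adjusted p = 0.274) and Defa21 of 1.01 (SE 0.50, adjusted p = 0.145). Defa24 in organoid number 1290 had means of 810 CPM untreated and 1218 CPM treated, against 1160 and 1152 CPM in 1292.

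Both IL-22 effects share their cultures with the genotype comparisons above and are no separate evidence for them. Whether the response to IL-22 differed between genotypes was tested as an interaction. At an adjusted p under 0.01, 0 of the 6 genes passed (edgeR), against 0.0159% of all tested genes. DESeq2 called 0 of the 6 as well. None of the 6 had an unadjusted p under 0.05 (edgeR), which 912 of all 12559 tested genes had. The differences of log2 fold changes, Atg16l1ΔIEC minus Atg16l1fl/fl, ran from -0.55 (SE 0.40) for Defa17 to 0.33 (SE 0.23, adjusted p = 0.825) for Defa23. Beside Defa17, Defa26 was negative at -0.50 (SE 0.30, adjusted p = 0.779), and Defa24, with the smallest error, was at -0.09 (SE 0.22, adjusted p = 0.979).

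The 7 genes together took 0.327% ± 0.059 of all counts on genes in untreated Atg16l1fl/fl organoids and 0.396% ± 0.037 after IL-22, against 0.111% ± 0.023 and 0.123% ± 0.022 in Atg16l1ΔIEC (SD, n = 4 each). Defa24 alone made up 91.4% to 95.1% of the counts of the 7 genes in every culture, with reads at several places left out. The shares of the others were compared within a culture. Defa23 gave 4.41% to 5.42% of the counts of the 7 genes in untreated Atg16l1fl/fl cultures but 2.21% to 2.95% in untreated Atg16l1ΔIEC cultures. Its ratio to Defa24 was lower by 0.89 on the log2 scale in untreated and by 0.51 in treated Atg16l1ΔIEC organoids (exact permutation p = 0.0286 each, two-sided, the smallest that 4 against 4 allows).

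For Defa26 the shares were separated by IL-22. Defa26 gave 0.757% to 0.842% of the counts of the 7 genes in untreated and 0.513% to 0.588% in treated Atg16l1fl/fl cultures. In Atg16l1ΔIEC cultures it gave 0.685% to 0.946% against 0.232% to 0.536%. A share also moves with Defa24, most of the sum. In Atg16l1fl/fl the means were 26 CPM untreated and 23.1 CPM treated for Defa26, against 3016 and 3878 CPM for Defa24. Neither pair of ranges of the shares overlapped. The ratio of Defa26 to Defa24 differed by -0.53 on the log2 scale with IL-22 in Atg16l1fl/fl and by -0.98 in Atg16l1ΔIEC (exact permutation p = 0.0286 each, two-sided). In untreated organoids this ratio differed by -0.02 between the genotypes (exact permutation p = 0.886). The ratio of Defa17 to Defa24 was at -0.84 with IL-22 in Atg16l1ΔIEC, again without overlap (exact permutation p = 0.0286). These 20 ratios, 5 genes in 4 comparisons, were chosen after the values were seen, and with 0.0286 as the lowest p a value adjusted over all 20 was at least 0.0952.

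**Figure D2:**
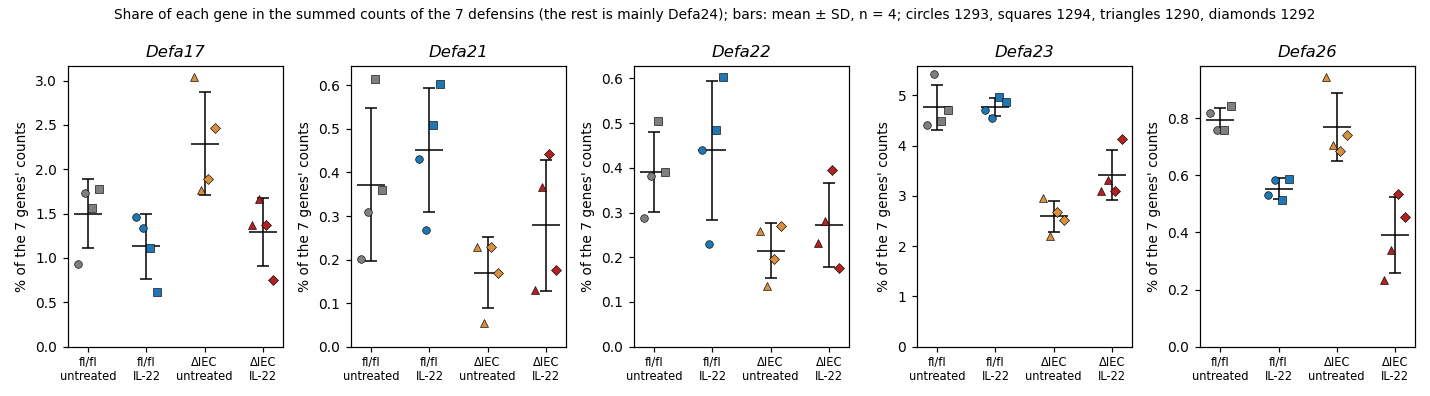
Share of Defa17, Defa21, Defa22, Defa23 and Defa26 in the summed counts of the 7 alpha-defensin genes, in percent on a linear axis from 0, in every culture. Points are cultures, with a symbol for each organoid number, and bars are the mean and SD of 4 cultures. The share of Defa23 is lower in every Atg16l1ΔIEC culture than in any Atg16l1fl/fl culture, and that of Defa26 is lower with IL-22 in both genotypes.

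Of the other 32 Defa genes, 18 had at least 1 count and 6 passed the filter on low counts (Defa3, Defa5, Defa29, Defa30, Defa34 and Defa36). In untreated organoids 4 of these 6 were lower in Atg16l1ΔIEC and the median log2 fold change was -2.46, and after IL-22 5 of 6 were lower with a median of -1.83. Over all tested genes, 5.98% and 9.84% were lower in these comparisons. Defa30 had means of 151 ± 72.8 CPM in untreated Atg16l1fl/fl and 27.3 ± 5.45 CPM in untreated Atg16l1ΔIEC organoids (log2 fold change -2.50, adjusted p = 1.08e-05, edgeR). Defa29 had means of 22.6 ± 6.76 and 4.25 ± 2.48 CPM (-2.53, adjusted p = 4.44e-05, edgeR).

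Defa34 was the 1 Defa gene that passed for IL-22 in both genotypes. Its mean was 4.45 ± 1.24 CPM untreated and 13 ± 2.90 CPM treated in Atg16l1fl/fl (log2 fold change 1.49, adjusted p = 2.40e-04, edgeR), and 0.862 ± 0.642 and 5.83 ± 1.58 CPM in Atg16l1ΔIEC (2.73, adjusted p = 5.09e-05, edgeR), where untreated cultures had 1 to 5 counts. The interaction for Defa34 did not pass (1.24, SE 0.52, adjusted p = 0.600, edgeR). Defa36 was at 23.4, 1.28, 19.5 and 4.01 CPM in untreated Atg16l1fl/fl cultures and at 25.0 to 32.9 CPM in treated ones. It did not pass for IL-22 in either genotype. Between the genotypes Defa36 did not pass in untreated organoids (-1.17, adjusted p = 0.146, edgeR) and passed after IL-22 (-2.11, adjusted p = 0.00204, edgeR).

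Defa3, the most abundant Defa gene after Defa24, varied within the control group in a way that none of the 7 genes did. It had 4355, 5380, 2078 and 84 counts in the untreated Atg16l1fl/fl cultures and 2901, 4644, 1018 and 3038 counts in the treated ones, or 22.5 to 1373 CPM in all. In the same cultures Defa17, whose sequence overlaps that of Defa3, ranged from 23.1 to 69.7 CPM, and the fourth untreated culture, lowest in Defa3, was at 46.3 CPM. The part of near copies in the spread of Defa3 was not tested. Defa3 passed in neither comparison of the genotypes (adjusted p = 0.118 untreated and 0.0720 with IL-22, edgeR).

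Granule genes of Paneth cells that are no defensins were lower in part. Of 9 such genes 8 were tested, and 4 were lower in untreated and 3 in treated Atg16l1ΔIEC organoids. Over all tested genes, 5.98% and 9.84% were lower in these comparisons. The granule genes had median log2 fold changes of -0.88 and -0.62 against -2.12 and -2.24 for the alpha-defensins above. Lyz1 was at 2124 ± 376 CPM in untreated Atg16l1fl/fl and 1723 ± 187 CPM in untreated Atg16l1ΔIEC organoids, and did not pass (log2 fold change -0.30, SE 0.12, adjusted p = 0.0835, edgeR). Itln1, a lectin that binds microbial sugars, was lower by -0.69 on the log2 scale (SE 0.09, adjusted p = 7.08e-05, edgeR), Ang4, an antimicrobial ribonuclease, by -1.11 (SE 0.22, adjusted p = 0.00175), and Habp2, a secreted protease, by -1.42 (SE 0.23, adjusted p = 3.29e-04). Mptx2, a pentraxin, had means of 8.59 and 0.706 CPM (-3.56, SE 0.46, adjusted p = 4.52e-05).

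Not past the threshold in untreated organoids were Mmp7, the protease that activates the defensins (-0.67, SE 0.18, adjusted p = 0.0118, edgeR), Pla2g2a, a phospholipase that kills bacteria (-0.87, SE 0.31, adjusted p = 0.0503), and Clps, a colipase (-0.90, SE 0.25, adjusted p = 0.0174). Mptx1 had at most 5 counts in a culture and was not tested. After IL-22, Itln1 (-0.89, adjusted p = 2.50e-06), Ang4 (-1.08, adjusted p = 0.00102) and Mmp7 (-0.70, adjusted p = 0.00395) were lower in Atg16l1ΔIEC.

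Relative to Lyz1 in the same culture the defensins were lower. Of the 8 tested granule genes, Lyz1 had the smallest change between the untreated genotypes. These ratios therefore largely repeat the differences given above and are no separate evidence for them. The ratio of Defa24 to Lyz1 differed by -1.32 on the log2 scale between the genotypes in untreated and by -1.54 in treated organoids, and that of Defa23 by -2.21 and -2.04 (exact permutation p = 0.0286 each, two-sided, 0.0312 adjusted over 12 ratios). These 12 ratios were chosen after the values were seen. For the ratio of Defa17 to Lyz1 in untreated organoids the groups overlapped (-0.71, exact permutation p = 0.0571). In bulk RNA, fewer Paneth cells and less defensin RNA per Paneth cell cannot be told apart.

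Of the 8 other tested granule genes, IL-22 raised 3 in Atg16l1fl/fl and 4 in Atg16l1ΔIEC, against 10.6% and 9.83% of all tested genes. With the organoid number as a replicate block it was 4 in Atg16l1fl/fl, as Itln1 (0.29, adjusted p = 0.0209, edgeR) then passed (0.29, adjusted p = 8.74e-04). Mmp7 rose from 248 ± 44.7 to 763 ± 100 CPM in Atg16l1fl/fl (log2 fold change 1.61, adjusted p = 1.02e-06, edgeR) and from 158 ± 46.0 to 469 ± 93.2 CPM in Atg16l1ΔIEC (1.59, adjusted p = 1.41e-06). Pla2g2a rose by 1.97 in Atg16l1fl/fl (adjusted p = 7.91e-06) and by 3.21 in Atg16l1ΔIEC (adjusted p = 4.23e-08), and Mptx2 by 2.65 (adjusted p = 2.21e-08) and 6.09 (adjusted p = 8.58e-11), the latter from 1 to 4 counts per culture. Habp2 rose in Atg16l1ΔIEC (0.95, adjusted p = 0.00578, edgeR) and was at 0.10 (adjusted p = 0.765) in Atg16l1fl/fl. Lyz1 was at -0.06 and 0.04, and Ang4 at -0.10 and -0.08, in the same order of genotypes.

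**Figure D3:**
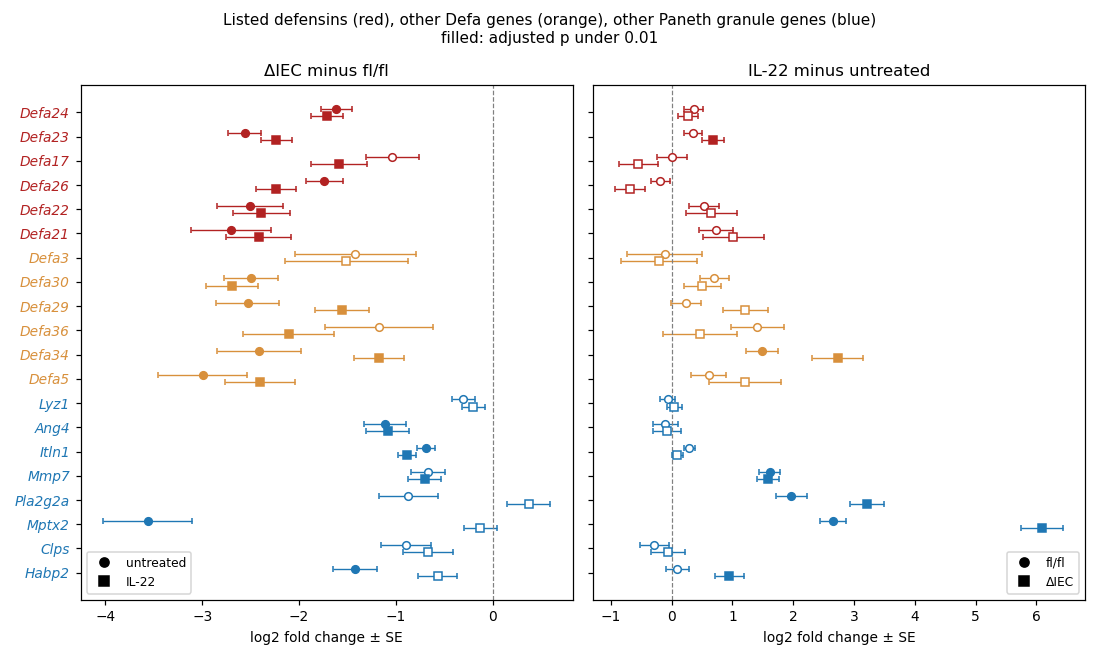
Log2 fold changes with SE for the 6 tested alpha-defensins described here, 6 further Defa genes and 8 other Paneth granule genes. The left panel gives Atg16l1ΔIEC against Atg16l1fl/fl without (circles) and with IL-22 (squares), the right panel IL-22 against untreated in Atg16l1fl/fl (circles) and Atg16l1ΔIEC (squares). Filled symbols passed an adjusted p of 0.01. In the left panel the defensins lie further left than Lyz1 and Itln1. Without IL-22, however, Mptx2 lies further left than every defensin, and Habp2 and Ang4 lie further left than Defa17. In the right panel Mmp7, Pla2g2a and Mptx2 lie far to the right.

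Other genes of the lineage were read beside the defensins. Over all tested genes, 5.98% were lower in untreated and 9.84% in treated Atg16l1ΔIEC organoids (edgeR). IL-22 raised 10.6% of them in Atg16l1fl/fl and 9.83% in Atg16l1ΔIEC. Of 15 genes for Paneth cell fate and secretion, 0 were higher and 2 lower in untreated Atg16l1ΔIEC organoids: Atoh1, the factor that sets the secretory fate (-0.76, SE 0.16, adjusted p = 0.00267, edgeR), and Kit, a receptor on secretory cells (-0.69, SE 0.15, adjusted p = 0.00301). After IL-22, 3 were lower, with Spdef (-0.94, adjusted p = 0.00147) and Atoh1 (-0.69, adjusted p = 0.00299) first by p-value. The medians of this list were 0.07 and -0.24. Of 5 niche signals that Paneth cells give to stem cells, 4 were tested and 0 passed between the genotypes in either treatment, whereas IL-22 raised Dll4, a Notch ligand (1.09, adjusted p = 7.30e-05), and Tgfa, an EGF receptor ligand (0.59, adjusted p = 1.49e-04), in Atg16l1fl/fl and Tgfa (0.48, adjusted p = 0.00157) in Atg16l1ΔIEC.

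Some markers of other cell types differed between the genotypes as well. So did 9.76% of all tested genes in untreated and 19.8% in treated organoids, in either direction (edgeR). The 8 goblet cell markers summed to 2116 to 3344 CPM in untreated Atg16l1fl/fl and 1506 to 2013 CPM in untreated Atg16l1ΔIEC cultures, with 4 of 8 lower, Agr2 (-0.59, adjusted p = 1.80e-04, edgeR) and Spink4 (-1.39, adjusted p = 2.02e-04) first by p-value. The 8 stem cell markers summed to 1964 to 2377 and 2520 to 2760 CPM, with 3 higher, Ascl2 (1.23, adjusted p = 2.05e-05) and Olfm4 (2.04, adjusted p = 7.08e-05) among them. Olfm4 alone had means of 144 and 584 CPM, and 3 of the 8 had a negative sign without passing: Lgr5 (-0.58, adjusted p = 0.0656), Tnfrsf19 (-0.84, adjusted p = 0.0247) and Igfbp4 (-0.12, adjusted p = 0.550). For 8 enteroendocrine markers the sums were 371 to 629 and 230 to 379 CPM, with 2 lower, Gip (-1.18, adjusted p = 0.00583) and Chga (-0.81, adjusted p = 0.00964). Sums of the 9 enterocyte markers overlapped (4930 to 6062 and 4867 to 6610 CPM), with Fabp2 higher (1.25, adjusted p = 0.00196). None of 3 tested tuft cell and 2 tested immune markers passed. After IL-22, 1 goblet marker was higher and 4 were lower, 3 stem cell markers were higher and 2 lower, 3 enterocyte markers were higher and 3 enteroendocrine markers lower in Atg16l1ΔIEC. Retnlb, a goblet cell marker, was at 0 in all untreated cultures, and the part of these cell types in the defensin result was not tested.

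Across the 16 cultures the 6 tested defensins followed each other. Pearson's r of log2 CPM was 0.98 between Defa23 and Defa24, 0.97 between Defa21 and Defa22, and lowest between Defa17 and Defa21 at 0.70. As both genotypes are pooled, r holds the difference between them, and the cultures share organoid numbers. The 5 genes without a Defa symbol whose levels were most like the mean of the 6 were Nrn1 (r = 0.97), Specc1l (0.97), Fzd1 (0.97), Ppp1r3b (0.97) and Itln1 (0.96). Nrn1, a neuritin, was at means of 32.6 and 35.0 CPM in untreated and treated Atg16l1fl/fl and 0.266 and 0.148 CPM in Atg16l1ΔIEC organoids, and Fzd1, a Wnt receptor, at 8.26 and 9.69 against 2.03 and 1.84 CPM.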

How the data were processed

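RNA sequencing had been run on 16 organoid cultures, 4 per group. Per the study's methods and the submitters' processing notes, the authors trimmed paired-end reads with cutadapt, aligned them to mm10 (GRCm38) with TopHat2 and counted them per gene with HTSeq. The deposited values are raw counts, whole numbers without normalization. The study's methods name a stranded total RNA library and the labels a TruSeq RNA v2 kit. As the annotation release and the counting's strand setting are not given in the sources used here, a gene and an antisense partner cannot be told apart. Of 49585 gene identifiers, 49326 (99.5%) were matched in GENCODE M21, 43749 of them with the same version. Reads outside genes (38.0% to 40.1% of a culture's total), on several genes (0.740% to 1.13%) or at several places were left out.

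Genes were compared by edgeR 4.0.16 under R 4.3.3 (filterByExpr, TMM, quasi-likelihood F test, a mean per group, all 16 cultures), two-sided, adjusted by Benjamini-Hochberg over 12559 genes, with a threshold of 0.01. SE is the absolute log2 fold change over the square root of F. Exact two-sided permutation tests used log2 CPM with a pseudocount of 0.5 (smallest p 0.0286). Floors of 3 counts cover counting error only. The steps were tested on simulated data.

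Alternatives were DESeq2 1.42.0, RLE factors, library sizes without Defa genes, no filter, at least 10 counts in every culture, only the compared groups, summed cultures, the organoid number as a replicate block, limma-voom (limma 3.58.1), an adjusted p under 0.05, and leaving out each culture and organoid number. Organoid numbers come from the labels, which do not say what they stand for. Deviations from group means correlated across genes at r = 0.26 to 0.44 within and -0.43 to -0.22 between the Atg16l1fl/fl numbers, and at 0.06 to 0.32 and -0.35 to -0.08 in Atg16l1ΔIEC. Deviations from a group mean cancel over the group, so positive values within a number bring negative ones between numbers. Nested in genotype, the organoid numbers can block only IL-22 effects and the interaction.

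The 7 genes and the lists were chosen with earlier results of these data known. Named are the 7 genes, the 5 other Defa genes of highest mean CPM, each Paneth granule gene, of other lists the 2 genes of smallest p per direction, Atg16l1 and Reg3g, and the 5 genes most like the 7. Sequences came from GENCODE M21 transcripts and, for promoters, RefSeq, where 4 of the 7 were matched by symbol.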

Additional observations from a re-analysis of the deposited data

Results flagged for a closer look

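None of the 7 alpha-defensin genes was singled out by a test for a culture far from the other 3 of its group. That test was run on 64 groups of 4 cultures, over the defensins and the other Paneth granule genes, and chance alone picks about 1 in 20 such groups. It picked 2, both of low genes: Mptx1 in the first IL-22–treated Atg16l1ΔIEC culture, at 0.405 CPM from 1 count while the other 3 were at 0, and Habp2 in the third untreated Atg16l1fl/fl culture, at 5.89 CPM from 13 counts, with the others up to 9.36 CPM. Mptx2 differed between genotypes in its response to IL-22, by 3.44 on the log2 scale (interaction, adjusted p = 0.00958, edgeR), from 1 to 4 counts per untreated Atg16l1ΔIEC culture. This call was lost in 17 of 20 fits that left out a culture or organoid number (adjusted p = 0.00447 to 0.143, edgeR). It was also lost with summed cultures (adjusted p = 0.821), RLE factors (adjusted p = 0.0111) and limma-voom (adjusted p = 0.0746). With the organoid number as a replicate block (3.53, adjusted p = 1.20e-05, edgeR) and without a filter (3.43, adjusted p = 4.55e-15, edgeR) it passed. Those 2 fits called 0.446% and 0.315% of all tested genes for the interaction.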

How the results depend on the processing

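The lower level in Atg16l1ΔIEC kept its sign for each of the 6 tested genes in both treatments under all alternatives run. In untreated organoids 5 genes passed, 6 with DESeq2, without a filter, with only the compared groups or at an adjusted p under 0.05 (Defa17 added), 2 (of 3 tested) with at least 10 counts in every culture, 1 with cultures of an organoid number summed, and 3 to 6 on leaving out a culture or organoid number (3 without 1290). Over all tested genes, 10.34% passed with DESeq2, 7.24% without a filter, 9.38% with only the compared groups and 20.38% at an adjusted p under 0.05. With at least 10 counts in every culture it was 10.78%. After IL-22 6 passed, and 3 of 3 tested with at least 10 counts in every culture. With cultures of an organoid number summed 5 passed, without Defa17 (adjusted p = 0.0132, edgeR). All tested genes passed at 21.69% with at least 10 counts and at 1.36% with summed cultures. For IL-22 in Atg16l1fl/fl 0 passed, but 3 without a filter (Defa21, Defa23 and Defa24), 2 with the replicate block, 1 with limma-voom, and 0 to 1 on leaving out (1 without 1293). For IL-22 in Atg16l1ΔIEC 1 passed, but 2 without a filter, 2 with the replicate block, 2 at an adjusted p under 0.05, 0 with summed cultures, and 0 to 1 on leaving out (0 without untreated replicates 1 or 2, treated replicates 1, 3 or 4, treated Atg16l1fl/fl replicates 2 or 3, or either organoid number). For IL-22 the replicate block called 30.55% of all tested genes in Atg16l1fl/fl and 25.46% in Atg16l1ΔIEC. Without a filter it was 11.53% and 10.1%, and at an adjusted p under 0.05 it was 32.3% and 27.87%. With limma-voom 27.66% passed in Atg16l1fl/fl. The interaction called 0 of the alpha-defensins in each setting. The replicate block changed no other call of theirs, but added Itln1 with IL-22 in Atg16l1fl/fl (adjusted p = 8.74e-04) and the interaction of Pla2g2a (1.18, adjusted p = 5.94e-04). The causes were not tested.

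Signs turned for values near 0: Defa17 with IL-22 in Atg16l1fl/fl (0.01; -0.0047 with at least 10 counts, -0.0795 with limma-voom, -0.3827 to 0.3397 on leaving out), Defa24 with IL-22 in Atg16l1ΔIEC (0.27; -0.0092 to 0.5547 on leaving out, the lowest without 1290), and on leaving out the interactions of Defa21 (-0.092 to 0.5407), Defa22 (-0.223 to 0.4336) and Defa24 (-0.3715 to 0.1754). Over all tested genes, summing cultures left 10 calls between untreated genotypes instead of 1226. Defa20 had 0 to 7 counts per culture, and depth and reads lost to its near copies cannot be told apart.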
